A study of Mus musculus with 19 samples.

Results

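The 6 genes described here encode GABA-A receptor subunits that are found mainly outside the synapse or are less abundant than the main synaptic subunits: Gabra4, Gabra5, Gabrd, Gabrg1, Gabrg3 and Gabrb1. They were taken by name from a table of 20938 genes, and all 6 were listed and passed the filter on low counts. RNA was sequenced from the left prelimbic cortex of mice in 19 libraries. The groups called SCZ were given MK-801 (an NMDA receptor channel blocker, given to mice as a schizophrenia model) at 0.2 mg/kg intraperitoneally every day for 2 weeks, and those called Control were given saline. The treatment called c-MSST was a single stereotactic injection of ferumoxytol, an iron oxide nanoparticle, into that cortex, followed by a pulsed magnetic field. The groups were SCZ+c-MSST (4 libraries, MK-801 and c-MSST), SCZ (4 libraries, MK-801), Control+c-MSST (5 libraries, saline and c-MSST) and Control (6 libraries, saline). Tissue was collected 3 days after surgery according to the series' design text. The labels give no strain, sex, age or batch. Surgery in SCZ and Control mice is not described in them, so the effects of surgery, injected particles and field cannot be told apart in comparisons of c-MSST. No label says that the libraries came from separate mice, so p-values measure only the spread between these libraries, which may be technical.

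GABA-A receptors are chloride channels built from several subunits, commonly alpha, beta and gamma. Receptors with the delta subunit, often together with the subunit encoded by Gabra4, and receptors with the subunit encoded by Gabra5 lie largely outside the synapse, respond to low ambient GABA and carry a steady, tonic inhibition. Delta-containing receptors are known for their sensitivity to neurosteroids, and Gabra5 is known for its expression in hippocampus and deep cortical layers. Gabrg1 and Gabrg3 encode less common gamma subunits, and Gabrb1 encodes a beta subunit that is less common in cortex than that encoded by Gabrb2.

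In the mouse build mm10 with GENCODE release M21, Gabrg1 lies on the minus strand of chromosome 5 from 70842617 down to 70751047. Gabra4 (minus strand, 71569749 to 71658308) and Gabrb1 (plus strand, 71658113 to 72149037) lie head to head on the same chromosome, with starts 195 bases apart and spans that share 196 bases. Gabrg3 (56716465 to 57387188) and Gabra5 (57407672 to 57510059) lie on the minus strand of chromosome 7. Gabrd lies on chromosome 4 (155384980 to 155398112, minus strand). Whether counting used strand is not stated in the labels, so reads from the overlapping parts of Gabra4 and Gabrb1 cannot be assigned with certainty. The span of Gabra5 also overlaps other annotation, so its counts are uncertain in the same way.

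Promoter windows of 300 bases (250 before to 50 after a RefSeq start, build GRCm38.p6) were matched by symbol for 5 of the 6 genes, all but Gabrd. Those of Gabrg1, whose group means differed the most among the 6, and of the head-to-head pair Gabra4 and Gabrb1 are shown from 5′ to 3′ on the gene's own strand. The Gabrb1 window shown ends at 71657970, before the GENCODE start at 71658113 given above. It therefore belongs to a different, RefSeq start and does not hold the bases shared with Gabra4. Capitals mark matches on either strand to the GC box GGGCGG or the Egr site GCGNGGGCG, and none of the matched bases were shared between motifs.
Gabrg1 (chr5:70842568-70842867, minus strand): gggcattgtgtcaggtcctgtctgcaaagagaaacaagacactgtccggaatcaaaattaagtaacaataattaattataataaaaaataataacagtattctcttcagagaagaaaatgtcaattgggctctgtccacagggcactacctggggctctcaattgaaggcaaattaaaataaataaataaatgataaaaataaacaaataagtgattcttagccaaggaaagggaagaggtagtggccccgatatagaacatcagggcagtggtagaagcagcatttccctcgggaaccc
Gabra4 (chr5:71658259-71658558, minus strand): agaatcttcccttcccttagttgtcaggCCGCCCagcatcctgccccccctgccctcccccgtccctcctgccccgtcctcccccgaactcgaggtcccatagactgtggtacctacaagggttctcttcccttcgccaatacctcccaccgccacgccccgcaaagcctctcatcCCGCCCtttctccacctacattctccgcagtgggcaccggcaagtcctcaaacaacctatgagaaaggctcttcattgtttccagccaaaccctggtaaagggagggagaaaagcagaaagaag
Gabrb1 (chr5:71657671-71657970, plus strand, first of its 2 starts): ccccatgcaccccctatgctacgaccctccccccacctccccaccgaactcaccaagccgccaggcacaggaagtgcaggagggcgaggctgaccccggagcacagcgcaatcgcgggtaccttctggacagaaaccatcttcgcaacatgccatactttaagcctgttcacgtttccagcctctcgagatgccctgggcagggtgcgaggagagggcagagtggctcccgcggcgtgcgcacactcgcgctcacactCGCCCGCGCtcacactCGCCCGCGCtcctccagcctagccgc
The Gabrg1 window held 38.3% G and C and 3 CpG, at the 7.36th percentile of G and C content among 32544 mouse promoters, whose medians were 53.0% and 7 CpG. The Gabra4 window held 58.7% G and C, 12 CpG and 2 GC boxes, and that of Gabrb1 held 66.0%, 25 CpG and 2 Egr sites at the first start. The window at the second Gabrb1 start held 50.3% G and C, 9 CpG and no match to the motifs searched. Over all promoters, 35.9% held a GC box, 13.6% the TATA box TATAAA, 1.8% the CRE TGACGTCA and 5.6% the Egr site. No match to any of these 4 motifs was found in the Gabrg1 window, which says only that these letters were not in it.

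Total counts ran from 50140626 to 82416746 per library. Control replicates 2 and 3 stood apart from the other libraries. Ttr, a choroid plexus gene, was at 1610 and 150 CPM (normalised counts scaled by library size) in them and at no more than 7.78 CPM elsewhere. Markers of striatal medium spiny neurons varied widely as well. The summed level of the 12 listed ran from 1800 to 4020 CPM in SCZ+c-MSST, from 2630 to 3550 in SCZ, from 599 to 2630 in Control+c-MSST and from 457 to 3130 in Control, and none of the 12 was at 0. All 12 were higher in SCZ than in Control (median log2 fold change 1.13, none called by edgeR, 2 of 12 at an unadjusted p under 0.05, beside 13.5% of all genes). On the mean of their centred log2 CPM, these markers scored -2.22 and -2.35 in Control replicates 2 and 3, and also -2.06 and -1.52 in Control+c-MSST replicates 6 and 7, so on this score those 2 Control libraries did not stand apart. The mean score of the 12 astrocyte markers was -0.02 in SCZ+c-MSST, -0.03 in SCZ, -0.08 in Control+c-MSST and 0.10 in Control. In these bulk samples, fewer cells of a type and less RNA per cell cannot be told apart.

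Across the 19 libraries Gabra4 was the most abundant of the 6 on the deposited FPKM scale, which is per gene length, with a level of 27.0 ± 3.27 FPKM (SD, n = 19). Gabrg3 followed with a level of 8.76 ± 1.56 FPKM, then Gabrb1 with 7.96 ± 1.03, Gabrd with 6.37 ± 1.2, Gabra5 with 2.66 ± 0.865 and Gabrg1 with 1.31 ± 0.405 FPKM. Gabra4 was above Gabrg3, and Gabra5 above Gabrg1, in all 19 libraries. Gabrg3 was above Gabrb1 in 16 of 19, Gabrb1 above Gabrd in 17 and Gabrd above Gabra5 in 17, so those neighbours in the order overlapped. The order depended on the length used. The length implied by the deposited counts and FPKM was 8.69 times the annotated exon length for Gabra5 (25854 against 2974 bases) and 2.95 times for Gabrd, where the median of 10789 genes was 1.06. Among those genes the ratio was at the 99.5th percentile for Gabra5 and at the 90.6th for Gabrd. Which length suits the counted reads is not known, so the levels of both on either scale are uncertain. Per kilobase of annotated exon, Gabra5 was first with a level of 22.9 ± 6.96 CPM, above Gabra4 (19.5 ± 2.17) in 14 of 19 libraries, and Gabrd was at 18.6 ± 3.36. Gabrg1 was the lowest on both scales. Comparisons of a gene between groups do not depend on its length.

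Within their subunit classes, on the FPKM scale, Gabra4 made up 21.1% of the summed alpha subunits and Gabra5 2.09%, averaged over the 19 libraries. Gabrg3 made up 24.1%, Gabrd 17.5% and Gabrg1 3.60% of the summed gamma, delta and epsilon subunits, and Gabrb1 5.14% of the beta subunits. Gabrb2 made up 69.3% of the beta subunits. Per kilobase of annotated exon the shares of Gabra5 (15.8%) and Gabrd (38.7%) were higher, and those of Gabra4 (13.6%) and Gabrg3 (14.5%) lower.

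**Figure D1:**
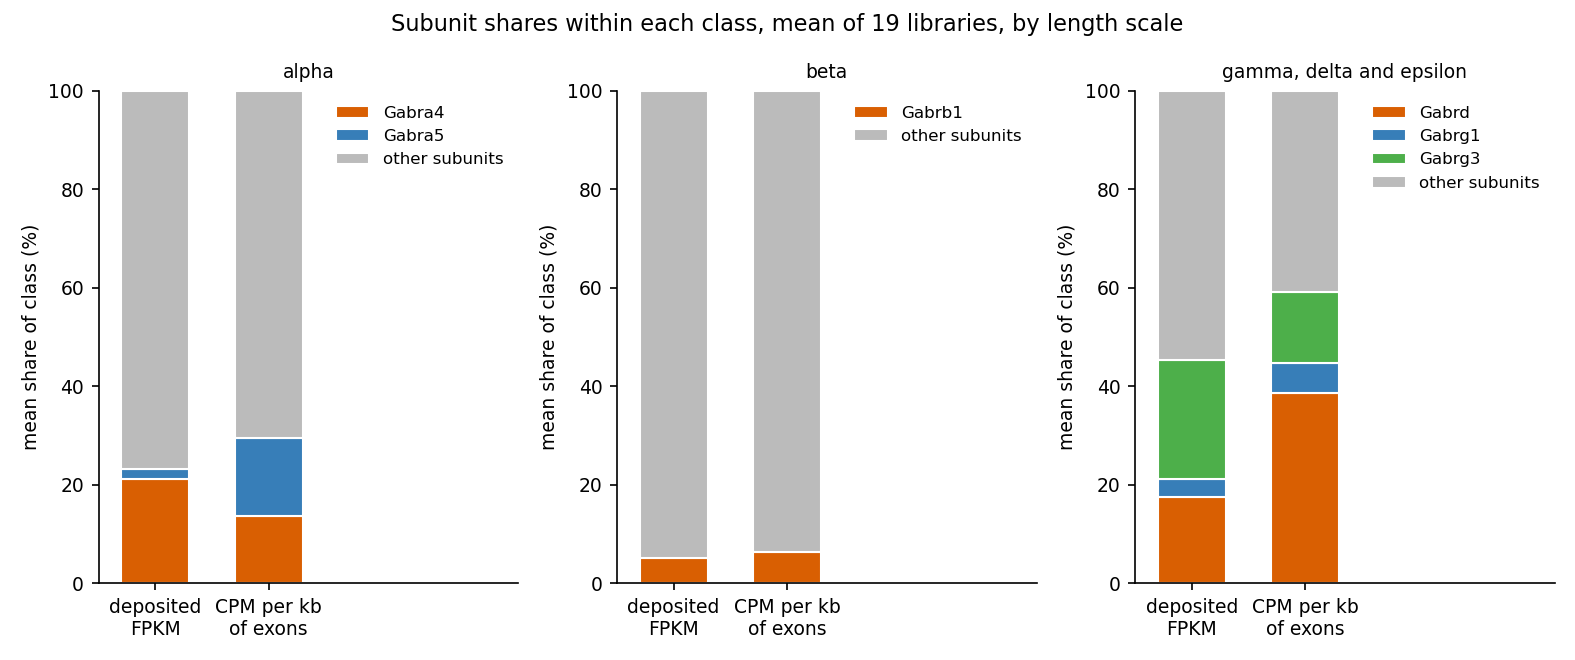
Stacked bars of the mean share (%, 19 libraries) of each member in the summed level of its class, with all other subunits in grey, on the deposited FPKM scale (left bar) and per kilobase of annotated exon (right bar). Gabrd makes up 17.5% on the left bar of its class and 38.7% on the right, and Gabra5 2.09% and 15.8%.

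Gabrg1, the gene with the widest spread of group means among the 6, was at 24.4, 31.0, 34.9 and 37.8 CPM in SCZ libraries, against a lowest of 15.5, a median of 20.5 and a highest of 26.8 CPM in Control libraries. The ranges overlapped, since 1 SCZ library lay below the highest Control. The fitted log2 fold change was 0.67 (SE 0.15, 95% interval 0.346 to 0.987), with an adjusted p of 0.148 in edgeR's quasi-likelihood test over 16417 genes, so Gabrg1 was not called. Of all tested genes, 2.84% had ranges that did not overlap in this comparison, and 0 of the 6 did. DESeq2 gave 0.66 with an adjusted p of 0.0123 for Gabrg1, and edgeR without Control replicate 4, the highest Control library, gave 0.76 with an adjusted p of 0.0451. Without Control replicates 2 and 3 the edgeR value was 0.62 (adjusted p = 0.224). Over the alternatives tried, the adjusted p for Gabrg1 ran from 0.0123 to 0.94 with edgeR, DESeq2 or limma, and the fold change kept its direction.

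With c-MSST, Gabrg1 was at 22.8, 18.2, 29.4 and 23.0 CPM in SCZ+c-MSST libraries, against 24.4, 31.0, 34.9 and 37.8 CPM in SCZ libraries. The lowest SCZ library lay below the highest SCZ+c-MSST library, so the groups overlapped. The log2 fold change of SCZ+c-MSST against SCZ was -0.46 (SE 0.17, 95% interval -0.811 to -0.1), with an edgeR adjusted p of 0.541. Gabrg1 was at 19.4, 16.9, 17.2, 16.3 and 16.8 CPM in Control+c-MSST libraries, all inside the range of the Control libraries (15.5 to 26.8 CPM). In that comparison 1.60% of all genes and 0 of the 6 did not overlap. Against Control+c-MSST, SCZ+c-MSST was higher by 0.43 on the log2 scale (SE 0.16, edgeR adjusted p = 0.370), and Control+c-MSST against Control was at -0.22 (SE 0.15, edgeR adjusted p = 0.478). The interaction, which asks whether the effect of c-MSST differed between MK-801 and saline mice, was -0.23 for Gabrg1 (SE 0.22, edgeR adjusted p = 0.842).

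**Figure D2:**
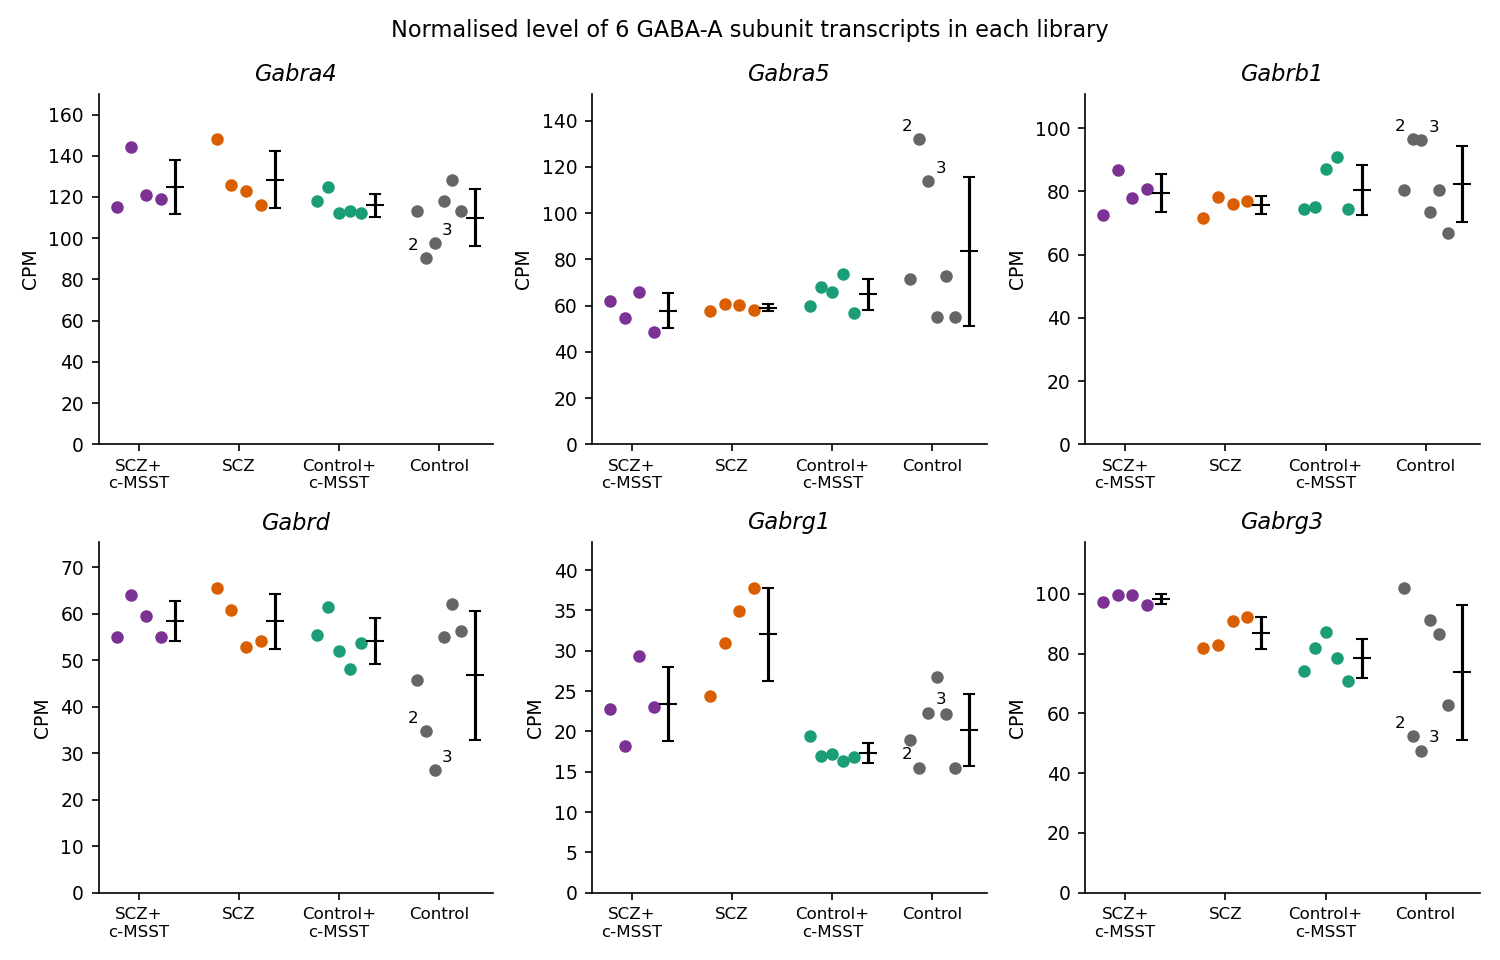
CPM of each of the 6 genes in the 19 libraries by group (points) with the group mean and SD (bars); the digits mark Control replicates 2 and 3. Gabrg1 is highest in SCZ (24.4 to 37.8 CPM), and Control replicates 2 and 3 are highest for Gabra5 and lowest for Gabrd and Gabrg3.

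The mean score of septum and medial forebrain markers was high in the SCZ libraries that had the most Gabrg1. Of the 7 listed markers, 6 were tested and Dbx1 was at 0 in every library. Their summed level ran from 52.1 to 66.9 CPM in SCZ+c-MSST, from 56.9 to 129 in SCZ, from 55.8 to 61.5 in Control+c-MSST and from 56.2 to 145 in Control. In SCZ against Control, 5 of the 6 tested were higher and 1 lower (median log2 fold change 0.345). Of these, 0 passed an unadjusted p under 0.05 in edgeR, beside 13.5% of all genes. The lower one was Trpc4, at 38.8 ± 7.67 CPM in SCZ and 52.7 ± 22.7 CPM in Control (SD). Zic1, a marker of septal and medial forebrain neurons, was at 13.5, 42.5, 41.4 and 51.6 CPM in the same order of SCZ libraries as Gabrg1 above, so the SCZ library lowest for Gabrg1 was also lowest for Zic1. In Control, Zic1 was at 34.5, 37.0 and 37.3 CPM in 3 libraries and at 11.7 CPM or lower in the other three, and Gabrg1 was at 15.5, 26.8 and 22.1 CPM in those 3 with high Zic1, and at 18.9, 22.3 and 15.5 CPM in the others. Between SCZ+c-MSST and SCZ the scores of these markers did not overlap, at -0.24 to 0.02 in SCZ+c-MSST and 0.12 to 1.35 in SCZ. Nor did those of the 10 choroid plexus and ependyma markers, at -1.38 to -0.31 in SCZ+c-MSST and 0.35 to 0.81 in SCZ, with summed levels of 13.0 to 19.7 CPM in SCZ+c-MSST and 22.3 to 30.2 CPM in SCZ and none at 0. The scores of oligodendrocyte precursor markers did not overlap either (-0.04 to 0.04 against 0.05 to 0.19). The same held for the other GABA-A subunits (-0.24 to -0.05 against 0.15 to 0.81). Of single genes, 8.28% of all tested had CPM ranges that did not overlap in this comparison. All 6 septal markers tested were lower in SCZ+c-MSST than in SCZ (median log2 fold change -1.10). Of these, 4 passed an unadjusted p under 0.05 in edgeR, beside 7.56% of all genes. DESeq2 called Zic2 among the 6 (-1.03, adjusted p = 0.0165), beside 0.378% of all genes, while edgeR did not call it (adjusted p = 0.289). With the septal marker score as a covariate, the Gabrg1 log2 fold change was 0.44 in SCZ against Control (SE 0.16, edgeR adjusted p = 0.94) and -0.19 in SCZ+c-MSST against SCZ (SE 0.17, edgeR adjusted p = 1). With the score of striatal markers as a covariate, the values were 0.53 and -0.43. Both covariates were added after the data were seen, and the part of tissue composition in the Gabrg1 difference was not tested. Of the 10 interneuron markers, which include genes of all GABA neurons, 4 were higher and 6 lower in SCZ against Control (median log2 fold change -0.06). Of these, edgeR called 0, and 3 higher and 1 lower (Cck) passed an unadjusted p under 0.05, beside 13.5% of all genes. DESeq2 called 2 of the 10, Gad2 (log2 fold change 0.70, adjusted p = 0.0263) and Slc32a1 (0.68, adjusted p = 0.0161), both higher, beside 1.48% of all genes. In the class of gamma, delta and epsilon subunits, the Gabrg1 share was 4.90 ± 0.89% in SCZ and 3.48 ± 0.715% in Control (SD, n = 4 and 6, exact permutation p = 0.0381, adjusted over 24 tests p = 0.254).

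**Figure D3:**
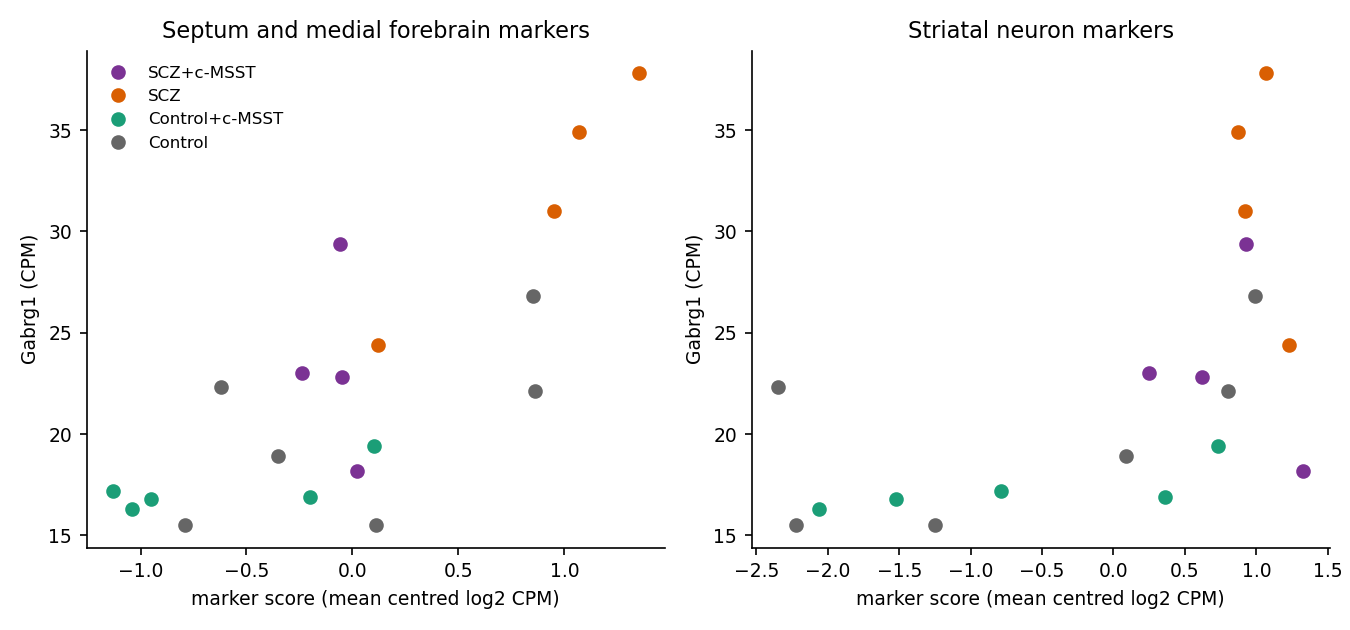
Gabrg1 CPM against the septal and the striatal marker score of each library, by group; the score is the mean log2 CPM of the markers after each was centred over all 19 libraries. The SCZ libraries with septal scores of 0.95, 1.07 and 1.35 have Gabrg1 at 31.0, 34.9 and 37.8 CPM.

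Gabra4 and Gabrd, the pair known from tonic receptors, varied together. Gabra4 was at 115, 144, 121 and 119 CPM in SCZ+c-MSST libraries, at 148, 126, 123 and 116 CPM in SCZ libraries and at 118, 125, 112, 113 and 112 CPM in Control+c-MSST libraries. In Control the lowest was 90.3, the median 113 and the highest 128 CPM. Gabrd was at 55.0, 64.0, 59.5 and 55.0 CPM in SCZ+c-MSST libraries, at 65.6, 60.9, 52.9 and 54.1 CPM in SCZ libraries and at 55.4, 61.4, 51.9, 48.2 and 53.7 CPM in Control+c-MSST libraries, against a lowest of 26.4, a median of 50.5 and a highest of 62.0 CPM in Control. Both genes were lowest in Control replicates 2 and 3, and the group ranges overlapped in every comparison. Against Control, SCZ had log2 fold changes of 0.22 for Gabra4 (SE 0.088, edgeR adjusted p = 0.282) and 0.32 for Gabrd (SE 0.17, edgeR adjusted p = 0.433). Without Control replicates 2 and 3 they were 0.12 and 0.09, and with the score of striatal markers, which were higher in SCZ, as a covariate they were 0.06 and 0.03. SCZ+c-MSST against SCZ was at -0.04 for Gabra4 (95% interval -0.245 to 0.161) and at 0.00 for Gabrd (-0.399 to 0.398). Of 15 pairs among the 6 genes, Gabra4 and Gabrd had the highest Pearson r over 19 libraries, 0.84 (permutation p = 4e-05, adjusted p = 0.0006; Spearman's rho 0.84, adjusted p = 0.0009). It was 0.81 without SCZ replicate 1 and Control replicate 2, the 2 libraries farthest from the median of Gabra4, 0.80 without Control replicates 2 and 3, and 0.79 for deviations from group means. Genes outside the 6 reached an r of 0.92 with Gabra4 and 0.93 with Gabrd. The part of tissue composition in the correlation of Gabra4 with Gabrd was not tested.

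**Figure D4:**
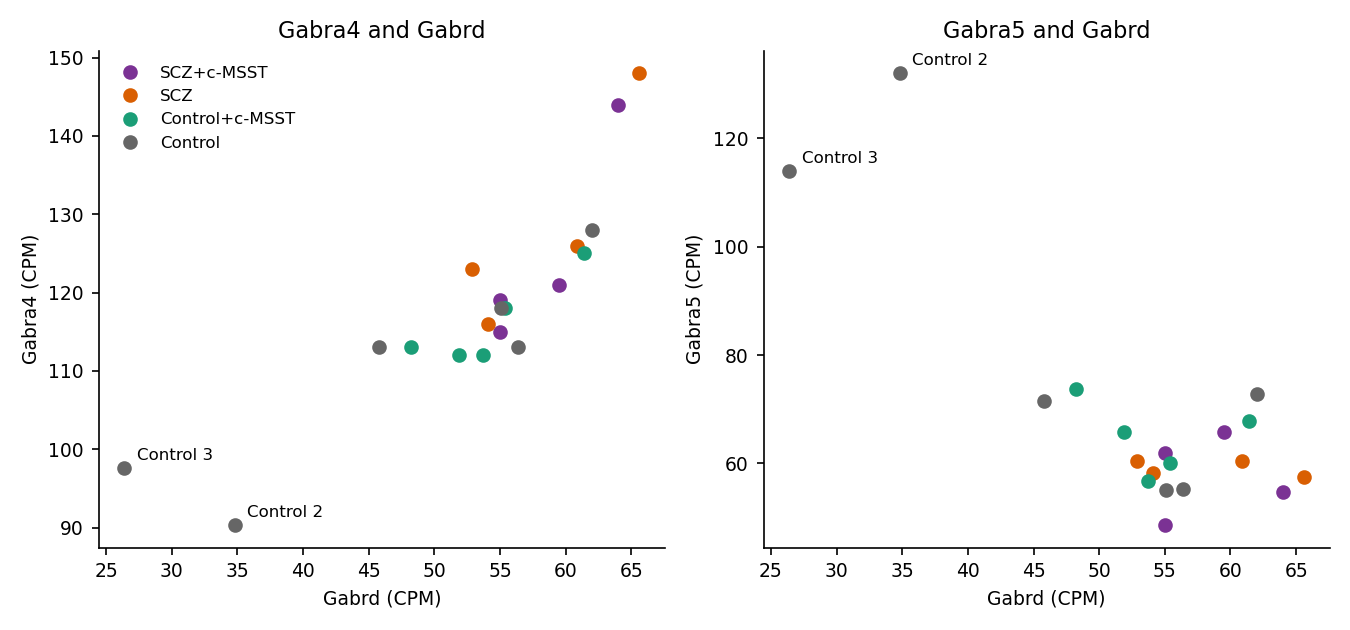
CPM of Gabra4 (left) and of Gabra5 (right) on the vertical axis against CPM of Gabrd on the horizontal axis, 1 point per library coloured by group, with Control replicates 2 and 3 named. Gabra4 and Gabrd vary together (r = 0.84), while for Gabra5 and Gabrd r is -0.82 with those 2 libraries and -0.27 without them.

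Gabra5 ran the opposite way in the same Control libraries. It was at 62.0, 54.7, 65.8 and 48.6 CPM in SCZ+c-MSST libraries, at 57.5, 60.5, 60.4 and 58.2 CPM in SCZ libraries and at 60.0, 67.9, 65.8, 73.7 and 56.8 CPM in Control+c-MSST libraries. In Control it was 132 and 114 CPM in replicates 2 and 3 and between 55.1 and 72.9 CPM in the other 4. The SCZ libraries lay within the Control range, and the log2 fold change of SCZ against Control was -0.50 (SE 0.21, edgeR adjusted p = 0.304). It was -0.11 without Control replicates 2 and 3 and -0.15 with the striatal score as a covariate. Control+c-MSST against Control was at -0.36 (SE 0.19, edgeR adjusted p = 0.356), and at 0.03 without those replicates. The correlation of Gabra5 with Gabrd was -0.82 (permutation p = 0.00316, adjusted p = 0.00948; Spearman's rho -0.45, adjusted p = 0.136) and -0.27 without those 2 libraries, so it rested on them. Without those 2, r was also 0.08 for Gabra5 with Gabrg3 (-0.69 with them) and -0.06 for Gabrd with Gabrg3 (0.71 with them).

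Gabrg3 was at 97.4, 99.5, 99.6 and 96.2 CPM in SCZ+c-MSST libraries, at 82.0, 82.7, 90.9 and 92.2 CPM in SCZ libraries and at 74.1, 81.8, 87.2, 78.4 and 70.7 CPM in Control+c-MSST libraries. Every SCZ+c-MSST library was above every SCZ and every Control+c-MSST library, while Control ran from 47.5 to 102 CPM with a median of 74.7. Of all 16417 tested genes, 4.50% were likewise higher without overlap in SCZ+c-MSST than in SCZ, and 2.30% in SCZ+c-MSST than in Control+c-MSST (8.28% and 4.67% in either direction). Gabrg3 was the 1 of the 6 in each. Its log2 fold change was 0.18 for SCZ+c-MSST against SCZ (SE 0.18, edgeR adjusted p = 0.858) and 0.32 for SCZ+c-MSST against Control+c-MSST (SE 0.17, edgeR adjusted p = 0.505). For SCZ against Control the Gabrg3 value was 0.24 (edgeR adjusted p = 0.565), and 0.02 without Control replicates 2 and 3, which held 52.3 and 47.5 CPM. The Gabrg3 share of its class was 27.0 ± 0.545% in SCZ+c-MSST, against 24.3 ± 1.38% in SCZ (exact permutation p = 0.0286, n = 4 each) and 23.1 ± 1.88% in Control+c-MSST (exact permutation p = 0.0159). These are the smallest p-values such group sizes allow, and neither passed after adjustment over the 24 tests of shares (both adjusted p = 0.254).

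The GENCODE spans of Gabrb1 and Gabra4 overlap. Gabrb1 had the smallest range of group means on the log2 scale among the 6 (0.108, against 0.87 for Gabrg1). It was at 72.6, 86.9, 77.8 and 80.9 CPM in SCZ+c-MSST, at 71.6, 78.2, 76.1 and 77.1 CPM in SCZ and at 74.5, 75.0, 87.1, 91.0 and 74.5 CPM in Control+c-MSST, against a lowest of 66.9, a median of 80.4 and a highest of 96.5 CPM in Control. All groups overlapped. Its log2 fold changes were -0.12 in SCZ against Control (95% interval -0.313 to 0.073) and 0.07 in SCZ+c-MSST against SCZ (-0.141 to 0.281). Gabrb1 and its neighbour Gabra4 correlated at r = -0.47 over the 19 libraries (permutation p = 0.0413, adjusted p = 0.0688; Spearman's rho -0.25, adjusted p = 0.415). Without the 2 libraries farthest from the median of Gabra4 r was -0.18, and without Control replicates 2 and 3 it was 0.02.

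None of the 6 genes was called at an adjusted p under 0.05 by edgeR in any comparison. Over all genes, edgeR called 0% in SCZ against Control, 0% in SCZ+c-MSST against Control+c-MSST, 0.329% (54 of 16417) in Control+c-MSST against Control, 0% in SCZ+c-MSST against SCZ and 0% in the interaction. At an unadjusted p under 0.05, 3 of the 6 passed in SCZ against Control (Gabra4 and Gabrg1 higher, Gabra5 lower), beside 13.5% of all genes. In SCZ+c-MSST against Control+c-MSST 1 of 6 (Gabrg1, higher) passed beside 11.0%, and in SCZ+c-MSST against SCZ 1 of 6 (Gabrg1, lower) beside 7.56%. In Control+c-MSST against Control 0 of 6 passed beside 16.6%, and in the interaction 0 of 6 beside 7.29%. DESeq2 called 1 of the 6 (Gabrg1) in SCZ against Control, beside 1.48% of all genes. It called 0 of the 6 in SCZ+c-MSST against SCZ (0.378% of all genes), in the interaction (0.244%), in SCZ+c-MSST against Control+c-MSST (0.445%) and in Control+c-MSST against Control (3.45%). The comparisons with a shared group share its libraries and are not independent. The median log2 fold change of the 6 in SCZ against Control was 0.23, beside 0 over all tested genes. Without Control replicates 2 and 3 that median was 0.06, and 1 of the 6 (Gabrg1) passed an unadjusted p under 0.05. With the striatal score as a covariate it was 0.02. The same median was 0.11 in SCZ+c-MSST against Control+c-MSST, 0.02 in Control+c-MSST against Control and -0.02 in SCZ+c-MSST against SCZ, beside 0.00, -0.01 and -0.01 over all genes. Within groups, Gabra5, Gabrd, Gabrg3 and Gabrg1 varied more than 92.3%, 90.6%, 89.3% and 88.0% of the 10123 genes above 10 CPM, and Gabrb1 and Gabra4 more than 67.0% and 64.5%. In Control, which holds replicates 2 and 3, the SD of Gabra5, Gabrd and Gabrg3 was 38.4%, 29.6% and 30.5% of the mean CPM. In the other groups it was at most 13.3%, 10.3% and 8.25%. For Gabrg3, Control libraries other than replicates 2 and 3 also ran widely, from 62.9 to 102 CPM.

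**Figure D5:**
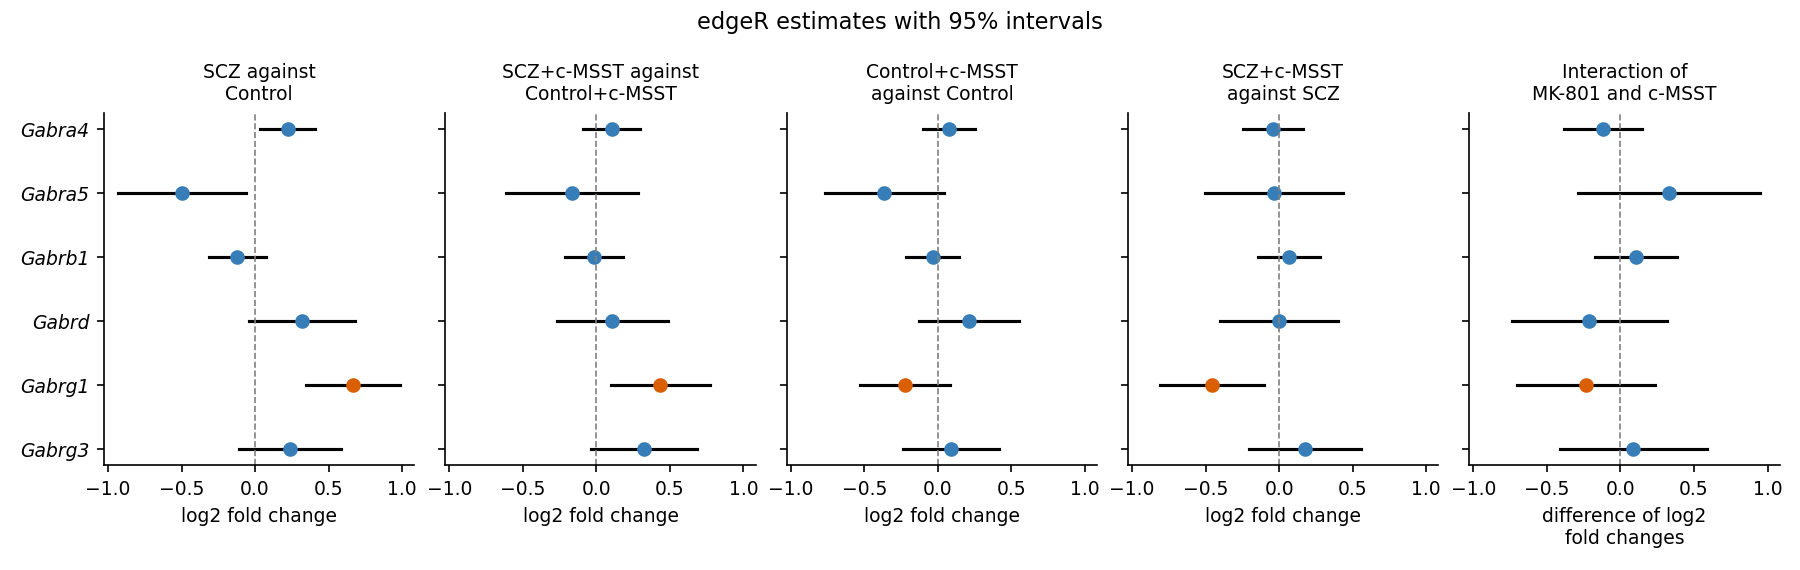
log2 fold change with its 95% interval (edgeR) for each of the 6 genes in the 4 comparisons of groups, and for the interaction the difference of 2 such changes. The Gabrg1 interval lies above 0 in SCZ against Control (0.346 to 0.987) and below 0 in SCZ+c-MSST against SCZ, with adjusted p of 0.148 and 0.541.

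Of the 13 other GABA-A subunits, 10 were tested and edgeR called 0 in any comparison. In SCZ against Control 2 passed an unadjusted p under 0.05, both higher, beside 13.5% of all genes, and in Control+c-MSST against Control DESeq2 called 1 (Gabrb2, adjusted p = 0.0491), beside 3.45% of all genes. Gabrb2 had a log2 fold change of -0.01 in SCZ against Control. Gabrb2 averaged 405 ± 60.6 CPM in Control+c-MSST and 338 ± 22.5 CPM in Control (SD, n = 5 and 6), a log2 difference of 0.26 (SE 0.077, edgeR adjusted p = 0.114), and 0.17 without Control+c-MSST replicate 1. Gabre, the epsilon subunit named in the series title, was rare, at 0.0308 ± 0.0361 CPM in SCZ+c-MSST, against 0.711 ± 0.535 CPM in SCZ (SD, n = 4 each, edgeR adjusted p = 0.401).

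Genes that set ambient GABA and neurosteroid levels (8 listed and tested) and receptor partners (8 listed and tested) held 0 genes called by edgeR in any comparison. DESeq2 called 1 gene, the partner Nlgn2, in Control+c-MSST against Control (log2 fold change 0.18, adjusted p = 0.02), beside 3.45% of all genes. In SCZ against Control, 2 of the first list and 1 of the second passed an unadjusted p under 0.05, all higher, beside 13.5% of all genes. Slc6a11, the astrocytic GABA transporter, averaged 172 ± 37.5 CPM in SCZ and 143 ± 12.5 CPM in Control (log2 difference 0.27, SE 0.095, edgeR adjusted p = 0.244). It averaged 137 ± 6.4 CPM in SCZ+c-MSST, which against SCZ was a log2 difference of -0.33 (SE 0.11, edgeR adjusted p = 0.439). In SCZ 1 library was at 228 CPM and the other 3 at 148 to 157 CPM, and without that library (replicate 5) the differences were 0.10 (edgeR adjusted p = 0.604) and -0.16 (edgeR adjusted p = 0.9). Of the partners, Rdx, which anchors receptors with the Gabra5 subunit outside the synapse, was at 74.9 ± 6.09 CPM in Control+c-MSST and 83.7 ± 4.14 CPM in Control (log2 difference -0.16, edgeR adjusted p = 0.153). Shisa7, an auxiliary subunit, averaged 308 ± 7.72 CPM in SCZ+c-MSST and 282 ± 10.9 CPM in SCZ (log2 difference 0.13, edgeR adjusted p = 0.688).

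The genes whose levels were most like each member across the 19 libraries, among 11545 genes of at least 5 mean CPM, were as follows, by Pearson r of log2 CPM. Gabra4 was most like Acvr1c (0.92), Coch (0.89) and Gcnt2 (0.89), and Gabrd most like Prkcz (0.93), Ngef (0.93) and Rragd (0.92). Gabra5 was most like Egfem1 (0.93), Dnah9 (0.92) and Kctd4 (0.91). Gabrg1 was most like Nipsnap2 (0.92), Usp29 (0.91) and Zcchc12 (0.90), Gabrg3 most like Pde4b (0.89), Syt6 (0.88) and Tiam2 (0.88), and Gabrb1 most like Slc7a14 (0.88), St6galnac5 (0.85) and Atp9b (0.84). These are the highest of many correlations over the same libraries and carry no p. They were not computed without Control replicates 2 and 3, on which the correlations among Gabra5, Gabrd and Gabrg3 rested.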

How the data were processed

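RNA from 19 libraries was analysed. The authors deposited estimated counts per gene (whole numbers as found) and FPKM values, which they had divided by gene length and depth. The submitters' processing notes name StringTie 1.3.5, Picard 2.18.29, STAR 2.7.7a and fastp 0.19.5 and the build mm10; annotation and strand setting are not given in the sources used here. Of the FPKM names, 11 had been turned into dates. Counts were fitted with edgeR 4.0.16 in R 4.3.3 (TMM, filterByExpr leaving 16417 of 20938 genes, robust quasi-likelihood fit, a coefficient per group); SE is the log2 fold change divided by the root of F. Adjustment was by Benjamini and Hochberg over all genes, and a gene was called at an adjusted p under 0.05. Alternatives were DESeq2 1.42.0, limma 3.58.1 on log2(FPKM + 1) and on log2(FPKM + 0.1), other filters and leave-one-out. CPM used TMM library sizes, and per kilobase levels used GENCODE M21 exons. Shares and correlations used exact or 100000-resample permutation tests, two-sided (Python 3.11.15, scipy 1.17.1). Precision is limited by 4 to 6 libraries a group. Named genes were the 6 members, the 3 genes most like each by Pearson r, Gabrb2, Gabre, Rdx, Shisa7 and Slc6a11; a few others taken by the rule are not reported here. Markers and list genes named beside these (Ttr, Zic1, Zic2, Trpc4, Dbx1, Gad2, Slc32a1, Cck and Nlgn2) were chosen after their values were seen. The members and lists were chosen with earlier results of these data known; the fits without Control replicates 2 and 3 and with marker scores were added after the data were seen.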

Additional observations from a re-analysis of the deposited data

Results flagged for a closer look

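Of the 44 sets of 4 to 6 libraries examined (the 6 members and Gabrb2, Gabre, Rdx, Shisa7 and Slc6a11 in each group), 1 held a library far from the others by Dixon's test, which chance gives in about 1 in 20 groups. Slc6a11 was at 228 CPM in SCZ replicate 5, and the nearest SCZ library was at 157 CPM, a gap of 0.885 of the range of the group. The test looks for a single library, so it can miss 2 that lie apart together, as Control replicates 2 and 3 did for Gabra5.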

How the results depend on the processing

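Over 19 same-numbered pairs, 1 had a correlation of deviations over 0.1 (median -0.0108), so the replicate number was not taken to pair libraries; with it as a block edgeR called 0 genes in Control+c-MSST against Control in place of 54, and Gabrd in SCZ+c-MSST against SCZ was 0.009. DESeq2 called 243 genes in SCZ against Control (1 of the 6, Gabrg1), 73 in SCZ+c-MSST against Control+c-MSST, 567 in Control+c-MSST against Control, 62 in SCZ+c-MSST against SCZ and 40 in the interaction, and with its fit or its size factors Gabrd in SCZ+c-MSST against SCZ was 0.0044. Fitting only the groups compared called 1 gene in SCZ against Control, 0 in Control+c-MSST against Control and 31 in SCZ+c-MSST against SCZ. Limma on FPKM with 1 and 0.1 added called 1 and 1, 292 and 296, and 2 and 2 in those comparisons; Gabrb1 in Control+c-MSST against Control was 0.0445 and 0.0505, and in the interaction Gabrg3 was -0.0823 and -0.0976 and Gabrb1 -0.0334 and -0.0384. With 0.1 added the median of all genes in the interaction moved to -0.13. The cause was not tested for any of these.

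Without Control replicates 2 and 3, edgeR called 16 genes in Control+c-MSST against Control and 1 in the interaction. Gabrb1 in SCZ against Control was 0.0088. In Control+c-MSST against Control, Gabra4 was -0.0257, Gabra5 0.0266, Gabrd -0.0198, Gabrg3 -0.127 and Gabrb1 0.0947, and in the interaction Gabra5 was -0.0602, Gabrd 0.0197 and Gabrb1 -0.0247. The share differences became, in percentage points, -0.878 for Gabrg3 and 0.209 for Gabrb1 in SCZ against Control, and 0.0809 for Gabra5, -0.185 for Gabrd and -2.08 for Gabrg3 in Control+c-MSST against Control. With the septal score as covariate 3 genes were called in Control+c-MSST against Control, Gabrb1 in SCZ+c-MSST against Control+c-MSST was 0.0098, and in SCZ+c-MSST against SCZ Gabra4 was 0.0026 and Gabrd 0.138. With the striatal score 188 genes were called in Control+c-MSST against Control, Gabrg3 and Gabrb1 in SCZ against Control were -0.0307 and 0.011, Gabra4, Gabra5, Gabrd and Gabrb1 in SCZ+c-MSST against Control+c-MSST were -0.0394, 0.0911, -0.175 and 0.0959, and Gabrd in SCZ+c-MSST against SCZ was 0.0457. Of shares, Gabrd in SCZ+c-MSST against Control+c-MSST was -0.441 from CPM; from annotated exon lengths Gabrg3 in Control+c-MSST against Control was -0.0877 and Gabrd in SCZ+c-MSST against SCZ 0.234.

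Leaving out each library in turn, edgeR called 0 to 94 genes (0 to 1 of the 6) in SCZ against Control, 0 to 1 in SCZ+c-MSST against Control+c-MSST, 0 to 314 in Control+c-MSST against Control, 0 to 2 in SCZ+c-MSST against SCZ and 0 to 1 in the interaction. Log2 fold changes that changed sign ran from -0.12 to 0.0327 for Gabra4, -0.102 to 0.0413 for Gabra5 and -0.049 to 0.0612 for Gabrd in SCZ+c-MSST against SCZ, from -0.0879 to 0.0163 for Gabrb1 and -0.01 to 0.202 for Gabrg3 in Control+c-MSST against Control, from -0.0628 to 0.0314 for Gabrb1 in SCZ+c-MSST against Control+c-MSST and from -0.028 to 0.186 for Gabrg3 in the interaction. Gabrg1 kept its sign in every fit tried. Shares that changed sign ran, in percentage points, from -1.26 to 1.57 for Gabra4 and -0.409 to 0.566 for Gabrd in SCZ+c-MSST against Control+c-MSST, from -2.33 to 0.501 for Gabra4, -0.185 to 0.0995 for Gabra5, -0.145 to 0.134 for Gabrb1 and -0.994 to 0.397 for Gabrd in SCZ+c-MSST against SCZ, and from -0.93 to 1.83 for Gabrg3 in Control+c-MSST against Control.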
